A study of Homo sapiens with 8 samples.

Results

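The genes described here encode the proteins of the mitochondrial ribosome and were chosen by symbol alone, as every gene whose symbol starts with MRPL or MRPS followed by a digit. This gave 78 of the 18388 genes in the table, and 77 of them were among the 10138 genes that were tested because 3 or more of the 6 compared libraries held 100 or more of their reads. MRPL23, a protein at the exit of the peptide tunnel, was not tested, with 93.8, 206, and 98.1 normalized reads in siControl and 92.7, 153, and 45.1 in siCGGBP1. Of the 78 members, 51 encode proteins of the large subunit and 26 encode proteins of the small subunit. The remaining one, MRPS36, carries the family symbol but encodes a component of the 2-oxoglutarate dehydrogenase complex. MRPS30 and MRPS18A are counted with the large subunit, where their proteins reside despite the S in their symbols.

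SLAM-Seq labels RNA made during a pulse of 4-thiouridine (4sU), which is read as T-to-C conversions after alkylation, so that total and newly synthesized RNA come from the same library. U-2OS Tet-ON cells, an osteosarcoma line carrying a transactivator controlled by tetracycline (Tet-ON), gave rise to all libraries, and every library title carries the word DMSO. Cells were transfected with siControl or siCGGBP1 at 50 nM and kept for 72 h, and 75 µM 4sU was given for the 60 min before harvest, with 3 replicates per group. The labels count this pulse within the 72 h, and the study's methods place it after them. One siControl library with 0 µM 4sU and one with 200 µM 4sU did not enter the comparisons. The study counts the replicates as biological ones, but the sources used here do not say whether these were separate cultures, and the p-values measure only the spread between these samples, which may be technical.

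Mitochondrial ribosomes translate the few proteins encoded by mitochondrial DNA, all of them subunits of the oxidative phosphorylation complexes. Their RNA comes from mitochondrial DNA, whereas all their proteins are encoded in the nucleus, made in the cytosol, and imported. Part of these proteins descend from those of bacterial ribosomes, and the others are specific to mitochondria. CGGBP1 is a nuclear protein that binds CGG trinucleotide repeats, and its depletion was the perturbation of the study.

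The members lie on 21 chromosomes, and all 78 identifiers matched GENCODE 44 on GRCh38. MRPL3 encodes a large subunit protein with a bacterial homologue and lies on chromosome 3 at 131462212 to 131502983, on the minus strand. Promoter stretches of RefSeq (GRCh38.p14) were matched for 69 members and covered 250 bases before to 50 bases after the transcript start. A run of at least 3 CGG repeats on either strand (CGGCGGCGG) was found in 1 of the 69, MRPS18A, compared with 7.46% of 27305 genes and 14.7% of the 7930 tested genes with a promoter stretch. The 80 bases before the start of MRPL3, of MRPS18A, and of MRPL22, the member with the lowest p-value in total RNA, are shown to set their CGG units side by side. The promoter of MRPL22 also held a run of 2 CGG units, outside the bases shown. Capitals mark CGG runs of at least 2 repeats on either strand and the ETS-type motif CCGGAAGT, and each stretch is written 5′ to 3′ on the strand of its gene.
MRPL3 (chr3:131502972-131503051, minus strand): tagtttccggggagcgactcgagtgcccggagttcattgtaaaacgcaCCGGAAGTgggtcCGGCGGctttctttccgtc
MRPS18A (chr6:43687792-43687871, minus strand): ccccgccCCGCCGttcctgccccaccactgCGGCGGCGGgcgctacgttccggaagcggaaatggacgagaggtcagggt
MRPL22 (chr5:154940993-154941072, plus strand): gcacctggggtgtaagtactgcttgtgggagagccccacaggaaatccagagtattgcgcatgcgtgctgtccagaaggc
The MRPL3 stretch holds 2 adjacent CGG units and CCGGAAGT from base -32 to base -25, counted from the RefSeq start. For MRPL3 this start lies inside the GENCODE span given above, so the last bases shown fall within that span. In MRPS18A the run of 3 units spans base -50 to base -42. CCGGAAGT, searched on both strands, was present in 12 of the 69 members (17.4%), compared with 4.95% of all genes and 11.0% of the tested genes. The NRF1 motif, also searched on both strands, was present in 9 of the 69 (13.0%), compared with 6.98% of all genes and 14.8% of the tested genes. The median log2 fold change in total RNA, siCGGBP1 over siControl, was -0.12 in members with CCGGAAGT and -0.26 in those without it. Over all tested genes with a promoter stretch the order was the opposite, with -0.07 and 0.00. For the NRF1 motif, the medians were -0.20 and -0.24 in the members and -0.00 and -0.01 over all tested genes. These letter matches are a description only.

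The 6 compared libraries held 10127519 to 14221516 reads, the 0 µM library 19011714, and the 200 µM library 11341561. CGGBP1, the target of the siRNA, had 1241, 1078, and 889 normalized reads in siControl replicates 1, 2, and 3 and 211, 116, and 359 in siCGGBP1, a log2 fold change of -2.22 ± 0.39 (SE; edgeR, adjusted p = 0.0137). In each of the 6 compared libraries, the osteoblast lineage genes COL1A1 and SPARC were detected with at least 7089 and 6351 reads. RUNX2 was detected there with at least 102 reads, whereas ALPL, BGLAP, and SPP1 were at 0 in some of these libraries. Of the markers of other cell types, CD3E, CDH1, and PECAM1 were at 0 in all 6 compared libraries, and PTPRC, VWF, and SYN1 reached at most 8, 23, and 90 reads. EPCAM, an epithelial gene, was detected in each of the 6 compared libraries with 46 to 184.5 reads. In the 0 µM library, the markers of other cell types together took 0% of the reads. The osteoblast markers summed to 0.116% to 0.155% of the reads in siControl and 0.278% to 0.393% in siCGGBP1, and their part in the results below was not tested. Normalized reads are read counts scaled to a common library size. The kit primes at the 3′ end of polyadenylated RNA, so a transcript gives reads from its end whatever its length, and the levels below are not divided by length.

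Mitochondrial ribosomal protein mRNAs together took a smaller share of the reads in siCGGBP1 than in siControl. The share was 0.827%, 0.880%, and 0.823% in siControl replicates 1, 2, and 3, with a mean of 0.843% ± 0.0314 (SD, n = 3). In siCGGBP1 it was 0.731%, 0.754%, and 0.742%, with a mean of 0.742% ± 0.0116 (SD, n = 3). The groups did not overlap, and the mean was 12.01% lower in siCGGBP1. The siControl libraries with 0 and 200 µM 4sU had shares of 0.836% and 0.866%, both within the range of the siControl libraries with 75 µM 4sU. Less RNA per cell and fewer cells expressing a gene cannot be told apart in these bulk libraries.

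The shares of both subunits were lower in siCGGBP1. Large subunit mRNAs took 0.496%, 0.540%, and 0.501% of the reads in siControl and 0.446%, 0.460%, and 0.482% in siCGGBP1. Small subunit mRNAs took 0.320%, 0.330%, and 0.307% in siControl and 0.271%, 0.282%, and 0.251% in siCGGBP1. The groups did not overlap for either subunit, with means 9.67% lower for the large and 16.1% lower for the small subunit. Whether the subunits differed from each other was not tested. Cytosolic ribosomal protein mRNAs moved the other way in the same libraries, from 14.3% ± 1.23 of the reads in siControl to 17.2% ± 0.966 in siCGGBP1 (SD, n = 3), and their part in the lower shares was not tested.

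**Figure D1:**
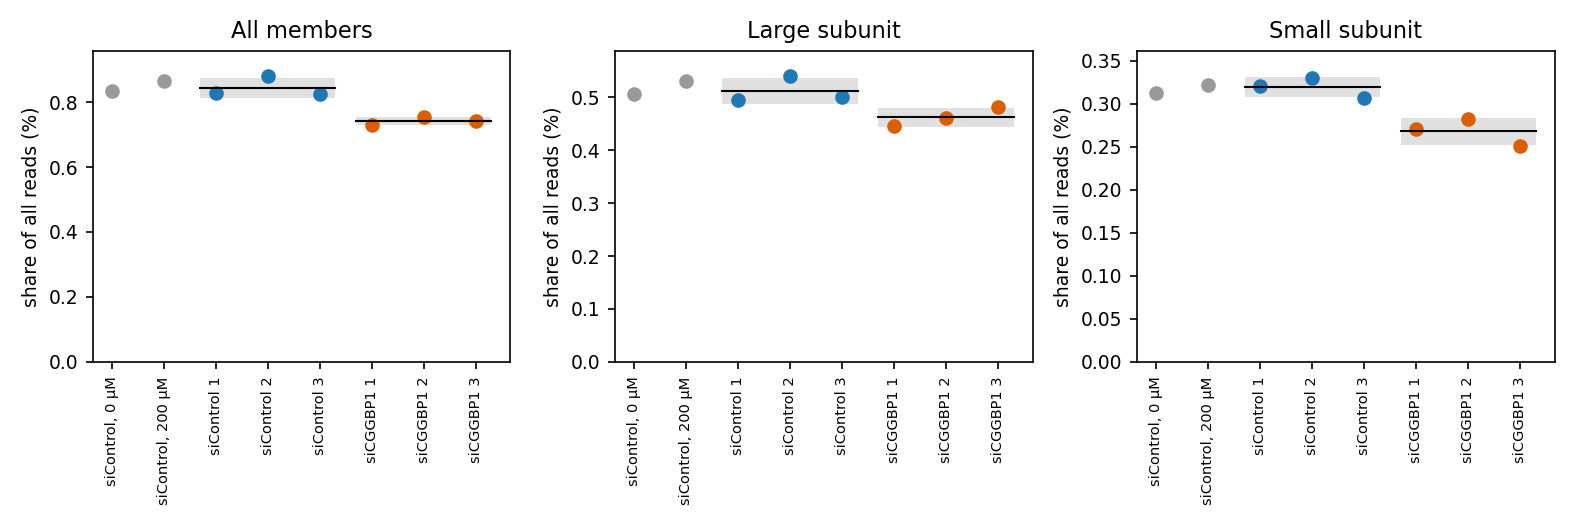
Share of all reads (%) taken by all members, by the large subunit, and by the small subunit in each library, with the group mean (line) and SD (shading) of the siControl and siCGGBP1 libraries with 75 µM 4sU and the single libraries with 0 and 200 µM 4sU in grey. All 3 siCGGBP1 libraries lie below all siControl libraries in each plot, with means of 0.742% and 0.843% for all members.

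Gene by gene, most differences were small, and no member passed the test in edgeR. In total RNA, 0 of 77 members were called lower and 0 were called higher by edgeR at an adjusted p under 0.05, whereas 1.21% of all tested genes were called lower and 0.543% higher. At an unadjusted p under 0.05, 7 members were lower, 9.09% of the family compared with 8.43% of all tested genes. At this threshold, 0 were higher compared with 7.95%. With the replicate number added to the edgeR fit as a block, 13 were lower, 16.9% compared with 10.6%, and 0 were higher compared with 9.36%. DESeq2 called 2 members lower, MRPL22 and MRPL46, and 0 higher, with 3.5% of all tested genes lower and 2.6% higher. The smallest adjusted p of a member in edgeR was 0.101. In data simulated at the fitted spread, this test recovered 0% of log2 changes of 0.5 and 7.46% of changes of 1. The absence of calls therefore does not show that the members were unchanged.

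The direction was shared more widely than the calls. The log2 fold change was below 0 in 57 of 77 members, 74.0% compared with 50.2% of all tested genes. The median was -0.22, a fold of 0.858, and the middle 50% of members lay between -0.37 and 0.00, whereas the median of all tested genes was -0.00. Set against the siControl mean, the median member differed by -0.17, -0.22, and -0.20 (log2) in siCGGBP1 replicates 1, 2, and 3. In these libraries, 60, 54, and 53 of 77 members lay below the siControl mean, compared with 48.1%, 47.8%, and 49.1% of all tested genes. Each siControl library set against the mean of the others gave medians of 0.00, 0.04, and 0.07, with 38, 37, and 34 of 77 members below. All 3 siCGGBP1 libraries thus lay below the siControl range, but the size rested in part on 1 control: without siControl replicate 3 the median log2 fold change was -0.13.

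**Figure D2:**
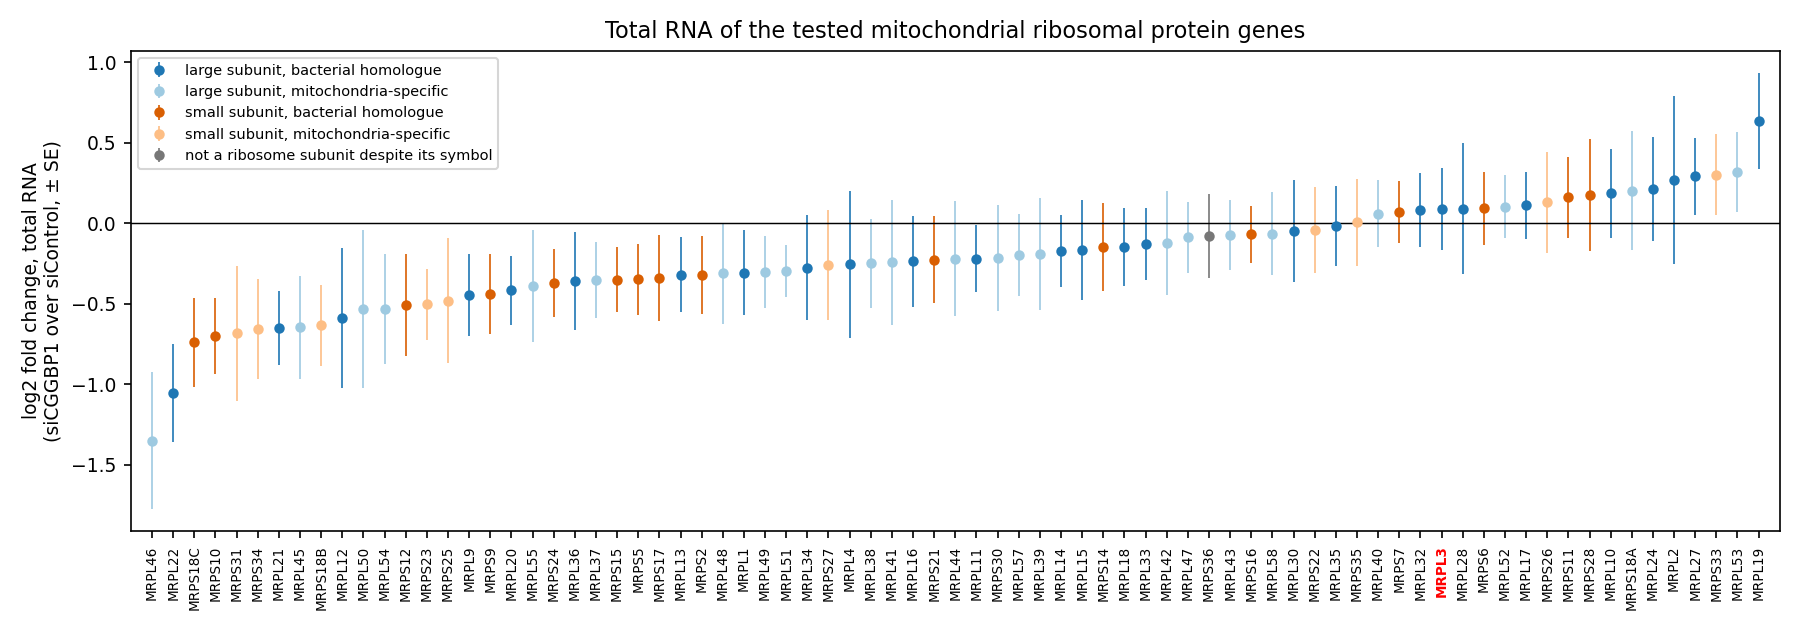
Log2 fold change of total RNA (siCGGBP1 over siControl, ± SE) of each tested member, ordered from lowest to highest and coloured by subunit and bacterial homologue. Values run from -1.35 for MRPL46 to 0.64 for MRPL19, 57 of 77 lie below 0, and MRPL3 (red label) lies near 0 at 0.09. MRPS18A, MRPS18B, and MRPL55 are coloured as mitochondria-specific.

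Within the family, 19 of 26 small subunit members were below 0, at a median log2 value of -0.33, and 37 of 50 large subunit members were below 0, at a median of -0.21. Divided by origin, the medians were -0.17 for the 27 large subunit members with a bacterial homologue, -0.22 for the 23 mitochondria-specific ones, -0.33 for the 16 small subunit members with a bacterial homologue, and -0.37 for the 10 mitochondria-specific ones. These medians were not tested against each other. MRPS18A and MRPS18B were counted here as mitochondria-specific, although their proteins are related to a bacterial one. The order of the small subunit medians depends on this placement of MRPS18B (-0.64). MRPL55 was also counted as mitochondria-specific, and its assignment to that class is not certain. Of all members, 14 were below -0.5, 1 was above 0.5, and 15 lay within 0.1 of 0. The log2 fold change exceeded the within-group SD of the gene in 31 members, and this SD had a median of 0.33 over the members.

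In 14 members all siCGGBP1 libraries lay below all siControl libraries, 18.2% of the family compared with 12.3% of all tested genes, and in 1 member they lay above, compared with 12% of all tested genes. The 14 were MRPL1, MRPL9, MRPL20, MRPL21, MRPL22, MRPL46, MRPL49, MRPL51, MRPS9, MRPS10, MRPS15, MRPS18B, MRPS18C, and MRPS23. The one that lay above was MRPL19.

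Of the large subunit, MRPL22, whose bacterial homologue lines the peptide exit tunnel, had 1076, 1253, and 1245 normalized reads in siControl and 821, 532, and 368 in siCGGBP1. The groups were well separated, with the log2 fold change at -1.06 ± 0.30 (SE), and the adjusted p was 0.101 in edgeR and 0.0231 in DESeq2, with a range of 0.0186 to 0.231 over the alternatives. MRPL46, a mitochondria-specific protein, had 422, 843, and 330 normalized reads in siControl and 220, 254, and 152 in siCGGBP1, where siControl replicate 2 stood far above the other controls. Its log2 fold change was -1.35 ± 0.42 (SE; edgeR, adjusted p = 0.133) and was -0.85 without siControl replicate 2. DESeq2 gave it an adjusted p of 0.049992, and the alternatives ranged up to 0.482. MRPL46 shares exon sequence on the same strand with another annotated gene, so its reads are uncertain.

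MRPL21, which has a bacterial homologue, had 1776, 1517, and 1715 normalized reads in siControl and 1028, 1307, and 852 in siCGGBP1, a log2 fold change of -0.65 ± 0.23 (SE; edgeR, adjusted p = 0.178). All 3 siCGGBP1 libraries were lower, as for MRPL22. MRPL51, a mitochondria-specific protein and the member with the highest level, had 7605, 7856, and 8301 normalized reads in siControl and 5927, 6075, and 7363 in siCGGBP1, a log2 fold change of -0.30 ± 0.16 (SE; edgeR, adjusted p = 0.396). The groups did not overlap, although siCGGBP1 replicate 3 came close to the lowest control.

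Of the small subunit, MRPS10, a protein of the subunit head with a bacterial homologue, had 1517, 1706, and 1200 normalized reads in siControl and 800, 976, and 941 in siCGGBP1. The siCGGBP1 libraries were tightly grouped below the controls, with a log2 fold change of -0.70 ± 0.23 (SE; edgeR, adjusted p = 0.155).

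The MRPS18 paralogs are all related to a single bacterial protein. MRPS18C, of the small subunit, had 1471, 1109, and 1262 normalized reads in siControl and 912, 888, and 500 in siCGGBP1. MRPS18B, also of the small subunit, had 2777, 2713, and 2121 in siControl and 1703, 2119, and 1075 in siCGGBP1. Both were separated between the groups, although for MRPS18B the nearest libraries differed by few reads, and the log2 fold changes were -0.74 ± 0.28 and -0.64 ± 0.25 (SE; edgeR, adjusted p = 0.202 and 0.230). MRPS18A, of the large subunit, had 462, 557, and 241 normalized reads in siControl and 370, 508, and 570 in siCGGBP1, with full overlap and a log2 fold change of 0.20. The difference between the paralogs was not tested.

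**Figure D3:**
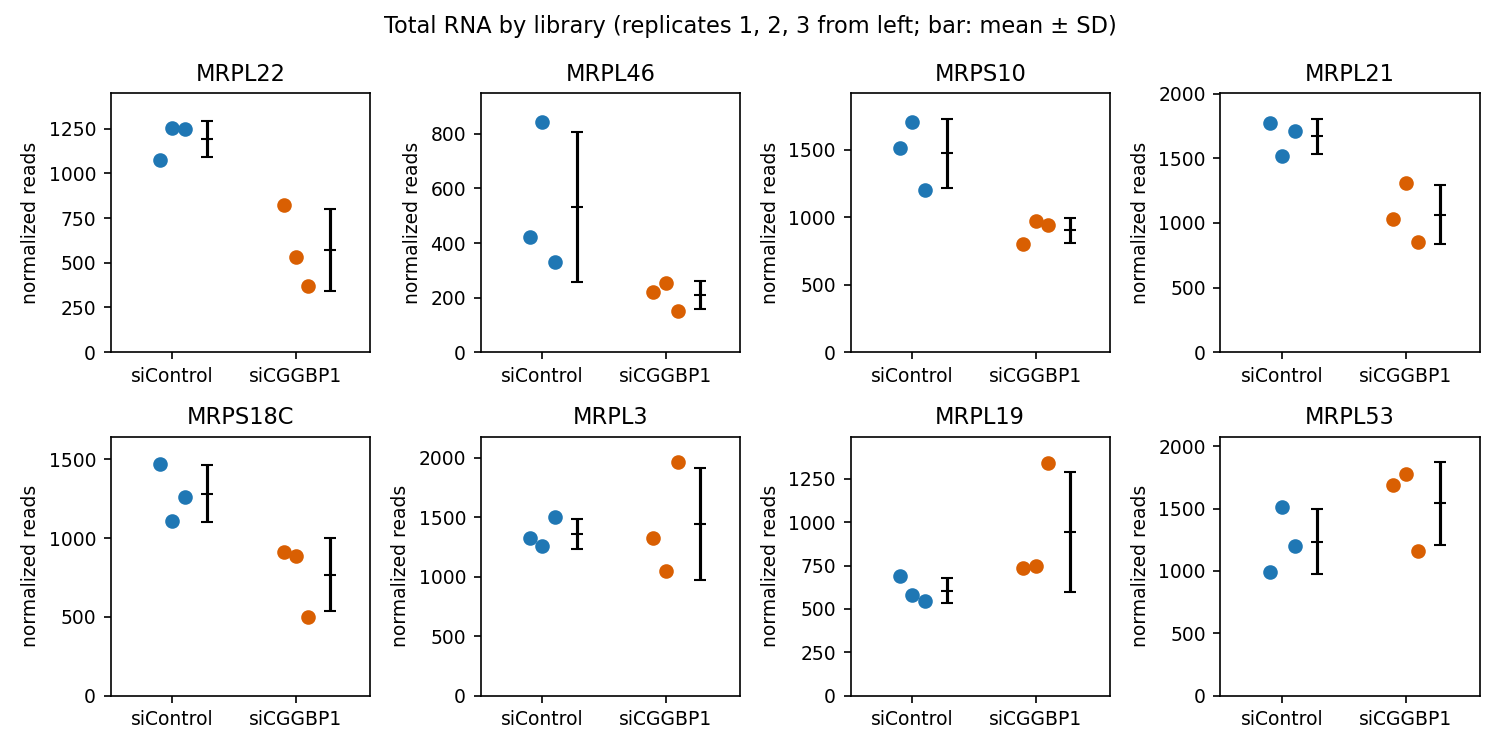
Normalized reads of MRPL22, MRPL46, MRPS10, MRPL21, MRPS18C, MRPL3, MRPL19, and MRPL53 in each siControl and siCGGBP1 library, with mean ± SD (n = 3) beside the points. The groups are separated downwards in the first 5 genes, overlap in MRPL3 and MRPL53, and are separated upwards in MRPL19, where siCGGBP1 replicate 3 (1341) stands above the rest.

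The members with the lowest p-values among those that were higher had smaller or less even differences. MRPL19, a large subunit protein with a bacterial homologue, had 689, 582, and 549 normalized reads in siControl and 739, 746, and 1341 in siCGGBP1, a log2 fold change of 0.64 ± 0.30 (SE; edgeR, adjusted p = 0.311). Replicate 3 of siCGGBP1 carried much of this difference, and the value was 0.30 without it. MRPL19 also shares exon sequence with another annotated gene on the same strand. MRPL53, MRPL27, MRPS33, and MRPL10 had log2 fold changes of 0.32, 0.29, 0.30, and 0.18, and their groups overlapped. Among the members placed by function rather than symbol, MRPS30 had 719, 746, and 969 normalized reads in siControl and 447, 588, and 1055 in siCGGBP1, and MRPS36 had 1342, 1136, and 1898 in siControl and 1676, 1412, and 1058 in siCGGBP1. Both overlapped between the groups, with log2 fold changes of -0.22 and -0.08.

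By level, the mean of siControl ranged from 248 to 7921 normalized reads over the tested members with a median of 1052, and 60 members lay between 500 and 2000. MRPL51 (7921), MRPS24 (4507), MRPS16 (4205), MRPS18B (2537), and MRPL52 (2339) were the highest, and MRPL50 (374), MRPL4 (321), and MRPL2 (248) were the lowest tested. The neighbours MRPS24 and MRPS16, both small subunit proteins with bacterial homologues, did not differ beyond their spread, with 5488, 4787, and 3248 reads in MRPS24 and 3653, 4089, and 4873 in MRPS16. MRPL2, which in bacteria lies near the peptidyl transferase centre, was also among the most variable, with 383, 257, and 103 normalized reads in siControl and 331, 394, and 171 in siCGGBP1.

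MRPL3, whose bacterial homologue reaches toward the peptidyl transferase centre, stood in the upper part of the family by level and close to 0 by difference. It had 1322, 1254, and 1501 normalized reads in siControl and 1321, 1047, and 1963 in siCGGBP1. The means were 1359 ± 127 and 1444 ± 470 (SD, n = 3), and the siCGGBP1 libraries lay on both sides of the controls. The log2 fold change was 0.09 ± 0.26 (SE; edgeR, adjusted p = 0.907), and it was -0.19 without siCGGBP1 replicate 3, so total MRPL3 RNA had no stable direction. MRPL3 ranked 26th of 78 members by level, and 15 of the 77 tested members had a higher log2 fold change. MRPL3 shares exon sequence with an antisense gene, and the strand setting of the counting is not given in the sources used here.

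In newly synthesized RNA, the members were labelled weakly in 60 min. Conversions per 100 covered T positions, summed over the members, were 0.187, 0.176, and 0.179 in siControl and 0.176, 0.172, and 0.168 in siCGGBP1, compared with 0.0463 in the 0 µM library. These rates overlapped between the groups. Over all genes they were 0.234, 0.245, and 0.183 in siControl, 0.263, 0.225, and 0.241 in siCGGBP1, and 0.0638 at 0 µM. Of the 77 members, 72 had a higher rate in siControl than at 0 µM, and 69 did in siCGGBP1.

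**Figure D4:**
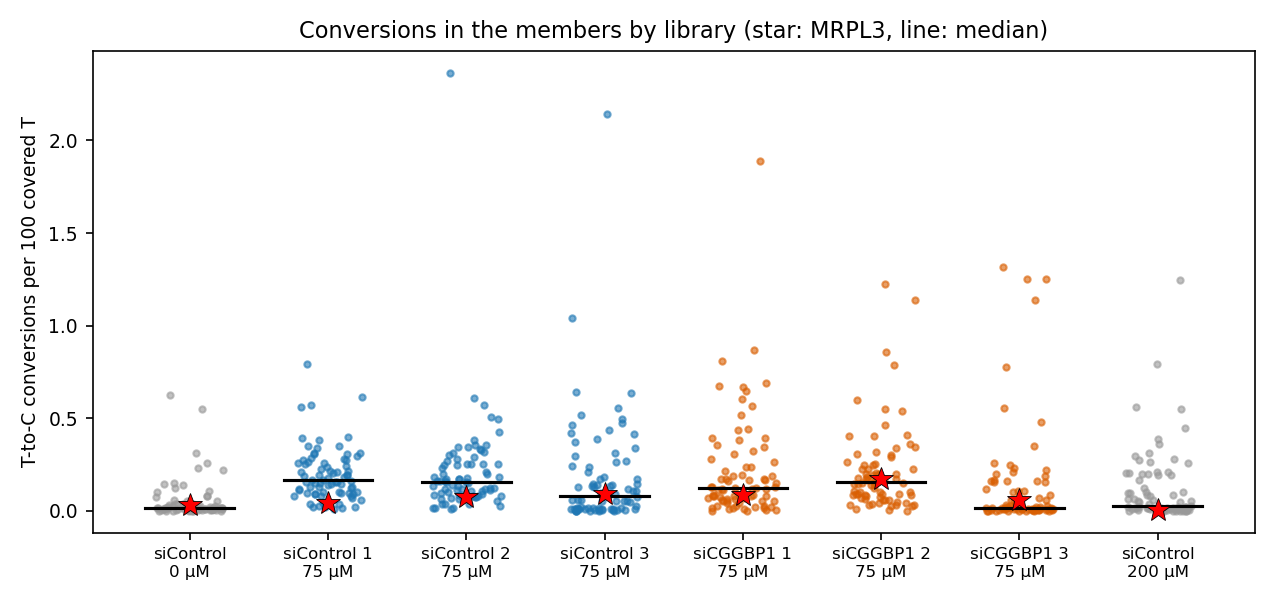
T-to-C conversions per 100 covered T positions of each tested member (point) in each library, with the median as a line and MRPL3 as a star. Members at 0 µM 4sU mostly lie near 0, and MRPL3 lies at 0.0442, 0.0751, and 0.0907 in siControl and 0.0870, 0.170, and 0.0566 in siCGGBP1.

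The new-to-total ratio is the estimated share of a gene's RNA that was made during the pulse. Its median over the members was 2.24%, 2.49%, and 0.01% in siControl and 1.12%, 1.90%, and 0% in siCGGBP1, and replicate 3 was the lowest in both groups. A ratio of 0 was listed for 16, 19, and 38 members in siControl and for 29, 19, and 49 in siCGGBP1. Over all tested genes, the medians were 3.82%, 4.74%, and 0% in siControl and 3.37%, 2.78%, and 0% in siCGGBP1, so the median in replicate 3 was 0 over all tested genes as well. The new RNA summed over the members, as a share of their reads, did not follow the median, with 3.14%, 3.18%, and 3.84% in siControl and 2.93%, 2.40%, and 3.18% in siCGGBP1. This share was highest in replicate 3 of each group, and the groups overlapped.

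Single members were labelled very unevenly between replicates. MRPS12, a decoding protein of the small subunit, had the highest mean ratio, with 26.0%, 15.9%, and 26.3% in siControl and 21.3%, 28.6%, and 12.7% in siCGGBP1. Its conversions were also frequent without 4sU, at 0.548 per 100 T compared with 0.631 in the pooled siControl libraries. MRPL44, which contains an RNase III fold, had ratios of 7.51%, 37.0%, and 0.98% in siControl, and MRPL1, of the stalk near the tRNA exit site, had 0%, 3.13%, and 34.8%. In both genes, 1 library accounted for most of the signal. In 12 members, the rate at 0 µM was more than 0.5 of that in siControl.

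In newly synthesized RNA, taken as reads times ratio, no member passed the test in edgeR. By this test, 0 of 77 were called lower and 0 higher, compared with 0.0197% and 0.0296% of all tested genes. At an unadjusted p under 0.05, 3 members were lower, compared with 1.91% of all tested genes, and 0 were higher, compared with 1.23%. DESeq2 called 1 member lower, MRPL57, and 0 higher, compared with 0.158% and 0.109% of all tested genes. The log2 fold change was below 0 in 48 of 77 members, 62.3% compared with 50.8% of all tested genes. Its median was -0.75 compared with -0.03, and it was -0.83 over the 75 members with more than 3 new reads in a library when a group with at most 3 in each library was set to a floor of 3 reads per library. This median ranged from -1.10 to -0.27 when single libraries were left out, with the smallest decrease without siControl replicate 2. All 3 siCGGBP1 libraries lay below all siControl libraries in 8 members, 10.4% compared with 4.45% of all tested genes, and above them in 1 member, MRPL3, compared with 2.89%.

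Conversion counts, which do not pass through the ratio estimate, gave 0 called members in edgeR in either direction, compared with 0.069% lower and 0.118% higher among all tested genes. At an unadjusted p under 0.05, 2 members were lower, compared with 2.94% of all tested genes, and 1 was higher, compared with 2.77%. Here 47 of 77 members were below 0, 61.0% compared with 51.0%, with a median log2 fold change of -0.48.

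The members with the lowest p-values in newly synthesized RNA had few new reads or none in either siControl or siCGGBP1. MRPL57, a mitochondria-specific large subunit protein, had new read counts of 48, 103, and 249 in the siControl libraries and 0, 4, and 0 in those of siCGGBP1. These groups were widely separated (edgeR, adjusted p = 0.993; DESeq2, adjusted p = 0.0427, the lowest of all alternatives, with 0.599 the next), while total MRPL57 RNA had a log2 fold change of -0.20 and overlapping groups. MRPS25, a mitochondria-specific small subunit protein, had 7, 24, and 117 in the controls and 0 in every siCGGBP1 library. Its conversions were 21, 33, and 102 in the controls and 4, 12, and 1 in siCGGBP1, which did not overlap either (edgeR on conversion counts, adjusted p = 0.984). MRPL21 had 20, 0, and 90 new reads in the controls and 0 in every siCGGBP1 library. Its conversions, 40, 23, and 96 in the controls and 25, 29, and 3 in siCGGBP1, overlapped, and the new reads listed at 0 stand beside conversions that were not 0.

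On the other side, MRPL54 had 0 new reads in 5 libraries and 101 in siCGGBP1 replicate 3, and MRPL12, of the stalk that recruits translation factors, had 0 in 5 libraries and 44 in siCGGBP1 replicate 2. MRPL12 and MRPS25 share exon sequence with another annotated gene on the same strand, as do MRPL2, MRPL53, and MRPS24. For MRPL54 and MRPL12, the difference thus rests on 1 library each. The conversions of MRPL12 were 3, 21, and 2 in siControl and 0, 35, and 0 in siCGGBP1, with overlapping groups. No fold is given for MRPS25, MRPL21, MRPL54, and MRPL12, since conversions were also counted in the group listed at 0 new reads.

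MRPL3 was the one member whose ratio and new reads were higher in every siCGGBP1 library. Its new-to-total ratio was 0%, 0%, and 0.01% in siControl and 0.28%, 2.62%, and 0.49% in siCGGBP1, and 0% in the 200 µM library. The groups did not overlap, and the two-sided exact permutation test gave p = 0.1, the smallest that 3 against 3 libraries allow. The credible limits were 0.01% to 0.45%, 0.01% to 0.59%, and 0.03% to 0.79% in siControl and 0.23% to 0.96%, 1.74% to 3.95%, and 0.24% to 1.01% in siCGGBP1, so only siCGGBP1 replicate 2 lay clear of all controls.

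In reads, this came to 0 in each siControl library and to 3, 28, and 12 new reads in the siCGGBP1 libraries. The difference did not pass the test (edgeR, adjusted p = 0.993), and 28 of the reads came from siCGGBP1 replicate 2. Its conversions were 20, 39, and 55 in siControl and 40, 69, and 52 in siCGGBP1, with 19 in the 0 µM library. Per 100 covered T, the means were 0.0700 ± 0.0236 in siControl and 0.104 ± 0.0585 in siCGGBP1 (SD, n = 3), with overlapping groups (two-sided exact permutation test, p = 0.5). In siControl, 71 of the 77 tested members had a higher mean ratio than MRPL3, and 5 were at 0 in all 3 libraries. By the log2 fold change of conversion counts (0.44), MRPL3 ranked 18th of 77 from the highest.

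Genes that work with the mitochondrial ribosome were set beside the family. The 5 mitoribosome proteins under other symbols had 4 of their log2 fold changes below 0 and a median of -0.12, the 14 translation factors had 9 below 0 and a median of -0.11, and the 17 assembly factors had 12 below 0 and a median of -0.15. None of these genes was called by edgeR. SLIRP, which stabilizes mitochondrial mRNAs, had 6502, 6471, and 7822 normalized reads in siControl and 4536, 4366, and 3931 in siCGGBP1, a log2 fold change of -0.70 (edgeR, adjusted p = 0.0581). MALSU1, an assembly factor of the large subunit, had 1625, 1903, and 2020 in siControl and 1240, 1256, and 1224 in siCGGBP1, a log2 fold change of -0.58 (edgeR, adjusted p = 0.176). In both, the groups were clearly separated. GADD45GIP1 and AURKAIP1, mitoribosome proteins named for other roles, had log2 fold changes of -0.55 and -0.25, and TSFM, a translation elongation factor, had -0.95 (edgeR, adjusted p = 0.262). MPV17L2, an assembly factor, had a log2 fold change of -2.91 (edgeR, adjusted p = 0.226) at low reads, with 0 in siCGGBP1 replicate 3.

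Wider sets are given for orientation, and their difference from the family was not tested. The 79 nuclear-encoded oxidative phosphorylation subunits had a median of -0.02, with 41 below 0, and 1 of them was called lower by edgeR, near the 1.21% of all tested genes. This was SDHD, a membrane anchor of succinate dehydrogenase (log2 fold change -1.91, adjusted p = 0.0137). None of the 79 was called higher. NDUFV3, of complex I, had a log2 fold change of 1.10 (edgeR, adjusted p = 0.0835). The 86 cytosolic ribosomal protein genes had a median of 0.19, with 68 above 0, and edgeR called 2 lower and 5 higher, beside 1.21% and 0.543% of all tested genes. The lowest p-values among them were those of RPL26L1 (log2 fold change -1.89, adjusted p = 0.00651) and RPS4X (0.72, adjusted p = 0.0161), both in edgeR. The mRNAs of mitochondrial DNA, the templates of the mitochondrial ribosome, were not analysed here.

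**Figure D5:**
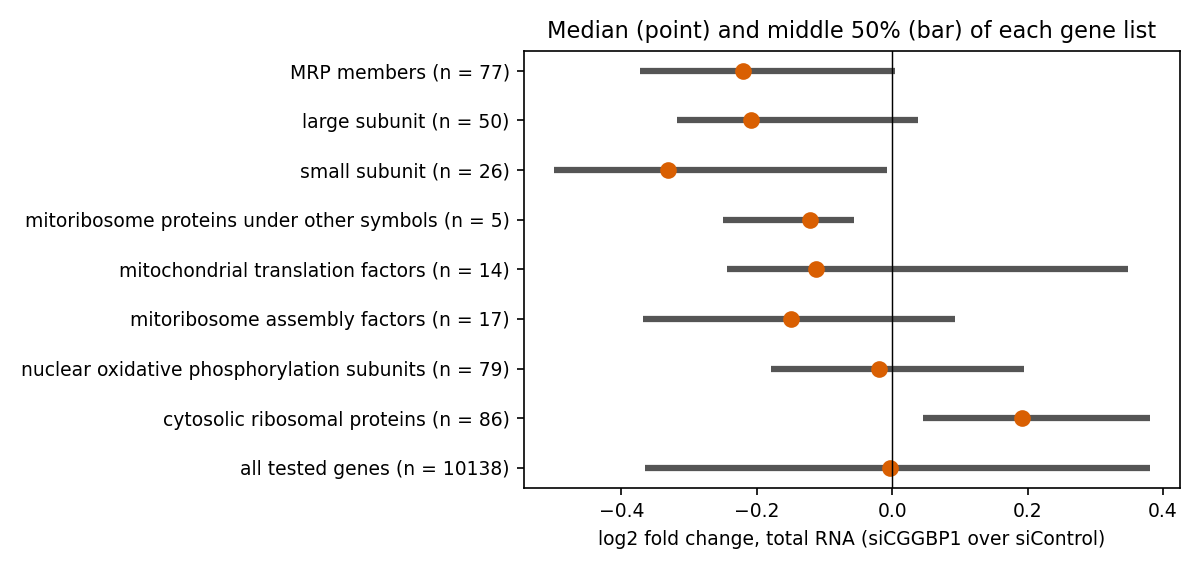
Median (point) and middle 50% (bar) of the log2 fold change in total RNA, siCGGBP1 over siControl, of each gene list and of all tested genes. Medians are -0.22 for the mitochondrial ribosomal protein genes and 0.19 for the cytosolic ribosomal protein genes, beside -0.00 for all tested genes.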

How the data were processed

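SLAM-Seq libraries of siControl and siCGGBP1 cells (3 replicates each at 75 µM 4sU) were compared. The authors removed ribosomal reads with Bowtie2 2.3.0, mapped with STAR 2.5.3a to GRCh38, and quantified with GRAND-SLAM. The deposited read, conversion, and covered-T values are expected counts, not normalized and fractional for 73 members. The deposited double-hit counts hold only 0 and served no test. The new-to-total ratio was deposited as a fraction per gene and sample, and the parameters of its distribution, deposited as a score, were not used. For newly synthesized RNA, the read count times the maximum a posteriori ratio was rounded.

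Genes with at least 100 reads in 3 of 6 libraries were fitted with edgeR 4.0.16 in R 4.3.3 (quasi-likelihood F test, TMM factors from total reads, Benjamini-Hochberg adjustment over 10138 genes, two-sided). Exact permutation tests used scipy 1.17.1. Alternatives used DESeq2 1.42.0, limma 3.58.1, conversion counts, other filters, a replicate block, and single libraries left out. In data simulated at the fitted spread with 200 changed genes among 10138, total RNA calls recovered 0% of changes of 0.5 (log2), 7.46% of changes of 1, and 59.1% of changes of 2, and newly synthesized RNA calls recovered 0%.

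Members, gene lists, and motifs were chosen with earlier results of these data known. Named genes were MRPL3, members placed by function, those with the lowest p in each direction (5 in total, 3 in newly synthesized RNA), the 5 highest and 3 lowest in level, the 3 highest in ratio, and the 2 with the lowest p of each related list. The SE of a log2 fold change was taken from its F statistic, as its size over the root of F. Exons shared with other genes affect 18 members on the same strand and 30 on the other, and 36 members have named pseudogenes, so their reads are less certain.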

Additional observations from a re-analysis of the deposited data

Results flagged for a closer look

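The siControl library with 200 µM 4sU entered no comparison. In it, 0.142 of 100 covered T positions of the members were read as C, more than the 0.0463 at 0 µM and less than the 0.187, 0.176, and 0.179 of the siControl libraries with 75 µM 4sU. Over all genes, the rate at 200 µM was 0.218.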

How the results depend on the processing

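In total RNA, DESeq2 called 2 members lower (all tested genes 355 lower, 264 higher), no filter called 1 lower (303 lower, 174 higher), and an adjusted p under 0.1 called 0 (250 lower, 168 higher), beside 0 members and 123 lower and 55 higher in edgeR. In newly synthesized RNA, DESeq2 called 1 member lower (all tested genes 16 lower, 11 higher). There, all tested genes gave 2 lower and 3 higher in edgeR, 1 higher with TMM on new reads, 7 lower and 12 higher on conversion counts, 0 and 0 by limma with 1 or 10 reads added, and 4 lower with the posterior mean ratio. The cause of these shifts was not tested.

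With single libraries left out, all tested genes gave 33 to 110 lower and 15 to 53 higher in total RNA, and 1 to 4 lower and 1 to 3 higher in newly synthesized RNA. The members' median ranged from -0.22 to -0.13 in total RNA and from -1.10 to -0.27 in newly synthesized RNA, and 0 members were called. Total MRPL3 ranged from -0.19 to 0.27, with -0.19 without siCGGBP1 replicate 3. Signs also turned for MRPL10 (-0.044 to 0.34) and MRPS30 (-0.64 to 0.024) without siCGGBP1 replicate 1, for MRPS36 (-0.23 to 0.16) without siCGGBP1 replicate 3 (0.090) or siControl replicate 3 (0.16), and for MRPS18A (-0.074 to 0.46) without siControl replicate 3. MRPL54 without siCGGBP1 replicate 3 and MRPL12 without siCGGBP1 replicate 2 had no new reads left and gave no value. Without MRPS36, chosen after seeing the data, 56 of 76 members were below 0 with a median of -0.22.

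Replicate numbers were not taken as pairs in the main fit. Deviations of same-numbered samples correlated at r = 0.105, 0.172, and 0.0836 over all tested genes, each the best match of its sample. Samples with different numbers correlated at -0.0990 to -0.0194. Over the members, same-numbered samples correlated at 0.0924, 0.536, and 0.115. Whether same-numbered samples shared a batch was not tested. With the replicate block, 0 members were called, 13 rather than 7 were lower at an unadjusted p under 0.05 (16.9% of the family and 10.6% of all tested genes), and all tested genes gave 161 lower and 85 higher in total and 1 and 1 in newly synthesized RNA.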
